A study of Homo sapiens with 12 samples.

Results

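Tubulin isotypes are the products of separate genes for α-tubulin and β-tubulin, and 10 of these genes are described here among the 25648 genes listed in the tables. They were chosen by gene name: 3 α-tubulin genes (TUBA1A, TUBA1B and TUBA1C) and 7 β-tubulin genes (TUBB, TUBB2A, TUBB2B, TUBB3, TUBB4A, TUBB4B and TUBB6). TUBA1A, TUBB2A, TUBB2B, TUBB3 and TUBB4A, which are enriched in neurons, form the neuronal class of 5 genes. TUBA1B, TUBA1C, TUBB, TUBB4B and TUBB6, which are expressed in many or most tissues, form the common class of 5 genes. All 10 were found in all 12 libraries and all 10 passed the filter on low counts.

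Poly(A) RNA was sequenced from MHCC97H, A549 and HCT116 cells, which are established human carcinoma lines of liver, lung and colon. Each line gave 1 library treated with 1 µM TSA (trichostatin A, which inhibits histone deacetylases), 1 with 50 µM GSK126 (which blocks EZH2, the enzyme that methylates lysine of histone H3 in Polycomb repression), 1 with 100 µM S2101 (which blocks the demethylase LSD1, or KDM1A) and 1 left untreated. The 3 lines are therefore the replicates of a condition (n = 3), and no line was repeated within a condition. The medium was RPMI for HCT116 and DMEM for the other 2 lines, so the effects of medium and line cannot be told apart. How long the cells were treated, and whether untreated cells received a solvent, is not given in the sources used here. In bulk RNA of this kind, fewer cells of a type and less RNA per cell cannot be told apart.

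Microtubules are hollow polymers of heterodimers of α-tubulin and β-tubulin. The isotypes are closely alike through most of the protein and differ most in a short, glutamate-rich tail at the carboxyl end, where polyglutamylation and other modifications are added and motors and microtubule-associated proteins bind. Cells also adjust tubulin mRNA to the amount of free tubulin: the factor TTC5 recognises the first amino acids of a nascent tubulin chain on the ribosome and, with SCAPER and the CCR4-NOT deadenylase, brings about decay of the mRNA being translated. TUBB3 is widely used as a marker of neurons and is also found in many carcinomas.

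Library totals ran from 14468304 to 19061367 counts, and 3 counts corresponded to 0.157 to 0.207 CPM, the count scaled to library size. Markers of the labelled tissues of origin did not follow the labels throughout: the summed level of 8 gut markers was 13.8 CPM in untreated HCT116, 1328 CPM in untreated MHCC97H and 11.4 CPM in untreated A549. The gut regulator CDX1 had no reads in any library. The 9 liver markers summed to 80.9 CPM in untreated MHCC97H, 38.0 CPM in A549 and 14.5 CPM in HCT116, and the 8 lung markers to 32.1 CPM in untreated A549, 38.1 CPM in MHCC97H and 5.22 CPM in HCT116. A single library touches some results below: genes with under 0.1 CPM in untreated A549 and at least 10 CPM in TSA-treated A549 (32 genes) had a median of 7.89% of their TSA level in S2101-treated A549 and 1.92% in GSK126-treated A549, while the 38 such genes of MHCC97H had 0.386% under S2101.

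The 3 α-tubulin genes lie close together on chromosome 12 (RefSeq annotation, GRCh38.p14): TUBA1B at chr12:49127782-49131395, TUBA1A at chr12:49184795-49189080 and TUBA1C at chr12:49227926-49274600. TUBB2A (chr6:3153666-3157544) and TUBB2B (chr6:3224277-3227653) are neighbours on chromosome 6, which also holds TUBB (chr6:30720352-30725422). The remaining genes are single: TUBB3 at chr16:89921925-89936097, TUBB4A at chr19:6494319-6502848, TUBB4B at chr9:137241287-137243707 and TUBB6 at chr18:12307669-12329826. All 10 are protein-coding genes. Their coding sequences (GENCODE release for GRCh38) were 96.3 to 97.3% identical among the 3 α-tubulin genes and 81.3 to 98.1% among the 7 β-tubulin genes, the highest being TUBB2A with TUBB2B.

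The start of the coding sequence is shown because its first 12 bases, in capitals, encode the stretch read in mRNA autoregulation. It was the same in all 3 α-tubulin genes and had 5 spellings among the 7 β-tubulin genes, 4 of which are given here.
TUBA1B: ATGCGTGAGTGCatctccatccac
TUBB: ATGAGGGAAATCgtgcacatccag
TUBB2A: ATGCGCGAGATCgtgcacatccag
TUBB2B: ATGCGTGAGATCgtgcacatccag
TUBB3: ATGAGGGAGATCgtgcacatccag

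The end of the coding sequence is shown for 6 of the 7 β-tubulin genes because it encodes the tail that sets the isotypes apart: the last 20 codons and the stop codon, with the glutamate codons GAA and GAG in capitals.
TUBB: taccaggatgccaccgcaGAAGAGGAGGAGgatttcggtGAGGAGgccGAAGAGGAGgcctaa
TUBB4B: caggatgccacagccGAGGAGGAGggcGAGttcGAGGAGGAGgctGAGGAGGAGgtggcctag
TUBB2B: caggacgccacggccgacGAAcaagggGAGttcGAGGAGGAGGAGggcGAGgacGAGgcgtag
TUBB3: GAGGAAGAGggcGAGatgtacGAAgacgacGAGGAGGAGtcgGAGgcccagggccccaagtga
TUBB4A: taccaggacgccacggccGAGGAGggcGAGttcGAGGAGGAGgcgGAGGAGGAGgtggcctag
TUBB6: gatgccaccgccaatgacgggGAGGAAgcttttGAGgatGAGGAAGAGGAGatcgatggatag
The 4 neuronal β-tubulin genes had 8 or 9 glutamate codons there and the 3 common β-tubulin genes 7 to 10, so the number did not separate the classes.

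How the counting step treated reads that fit several genes is not given in the sources used here, and the likeness of these genes limits what single values mean. Of the 50-base stretches of the transcript, 60.3% of TUBB2A and 47.3% of TUBB2B occur in another gene of the tables, as do 56.6% of TUBA1B, 51.7% of TUBA1A and 25.1% of TUBA1C. The share was 14.6% for TUBB4B, 8.8% for TUBB3, 6.0% for TUBB4A, 1.0% for TUBB6 and 0.4% for TUBB. Counted over every gene of the reference annotation, it was 89.4% for TUBB3, 87.1% for TUBA1B, 65.5% for TUBB2A, 52.2% for TUBB2B, 40.1% for TUBA1C, 30.8% for TUBB and 25.1% for TUBB4A, so fewer of their reads are unique if the authors' annotation held those genes. In HCT116, however, TUBB2B had 6 to 10 counts while TUBB2A had 1350 to 2514 counts, so at most 0.589% as many counts were assigned to TUBB2B as to its near-identical neighbour. TUBB3 also shares 89.5% of its exon bases with the read-through gene AC092143.1. That gene lies on the same strand, so strand cannot tell its reads from those of TUBB3 in the shared bases. Antisense genes overlap TUBA1B, TUBA1C, TUBB and TUBB4A, and their reads cannot be told apart where counting ignored strand.

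In untreated cells the common isotypes carried most of the tubulin mRNA. The authors' RPKM (reads scaled to transcript length and library size, so that genes can be compared by level) summed over the 10 genes to 2024 in MHCC97H, 2853 in A549 and 2242 in HCT116, and these genes took 0.399 to 0.562% of all counts. The neuronal class made up 16.2%, 17.3% and 14.8% of that sum, a share of 16.1% ± 1.25 (SD, n = 3). The ratio of α-tubulin to β-tubulin RPKM was 1.25 ± 0.106.

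By mean level in the untreated lines the order was TUBA1B (823 ± 169 RPKM, SD, n = 3), TUBB (584 ± 60.6), TUBA1C (274 ± 86.7), TUBB4B (267 ± 76.4), TUBA1A (219 ± 57.3), TUBB2A (79.5 ± 15.1), TUBB3 (76.0 ± 37.3), TUBB6 (41.1 ± 35.9), TUBB4A (7.22 ± 7.43) and TUBB2B (1.99 ± 1.80). The neighbours TUBA1C, TUBB4B and TUBA1A did not differ beyond their spread, nor did TUBB2A and TUBB3. In every untreated line TUBA1B was the highest gene and TUBB the next. TUBA1A was thus the leading neuronal isotype in all 3 untreated lines, at 179, 285 and 194 RPKM in MHCC97H, A549 and HCT116.

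Under TSA this order was rearranged. The highest mean was that of TUBB4B (289 ± 110 RPKM, SD, n = 3), followed by TUBA1B (221 ± 60.5), TUBB (188 ± 83.5), TUBB3 (175 ± 83.9), TUBB2A (157 ± 46.3), TUBA1A (145 ± 91.4) and TUBA1C (136 ± 9.37). These 7 genes lay within the spread of their neighbours, so their order under TSA is not resolved. TUBB4A (45.6 ± 8.21), TUBB2B (34.7 ± 30.3) and TUBB6 (34.5 ± 39.3) were lower.

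**Figure D1:**
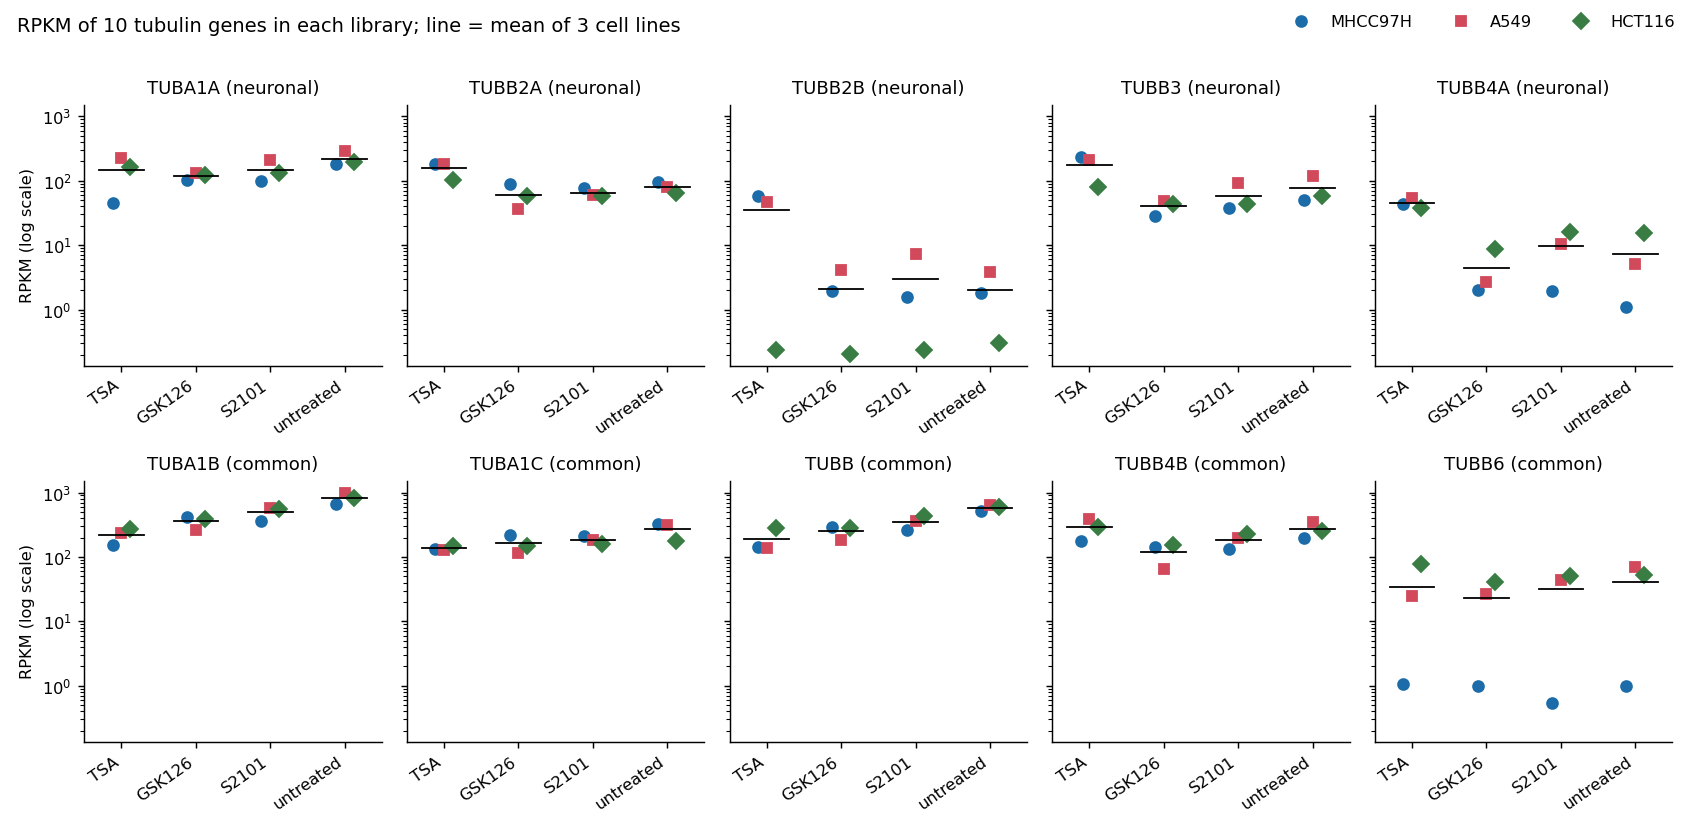
RPKM (log scale) of each of the 10 tubulin genes in the 12 libraries, by condition; points are the 3 cell lines and the short horizontal line is their mean. Under TSA the points of TUBB4A (38.3 to 54.5 RPKM) lie above all untreated points (1.09 to 15.5 RPKM), those of TUBA1B (155 to 274 RPKM) lie below all untreated points (653 to 991 RPKM), and TUBB2B stays at 0.205 to 0.303 RPKM in HCT116 in every condition.

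TSA set the 2 classes apart. Of the 5 neuronal isotypes 4 rose (TUBB2A, TUBB2B, TUBB3 and TUBB4A) and none fell, and of the 5 common isotypes 3 fell (TUBA1B, TUBA1C and TUBB) and none rose, by edgeR's quasi-likelihood test at a Benjamini-Hochberg adjusted p under 0.05. Over all 16394 genes tested, 17.1% rose and 17.1% fell. The median log2 change was 1.09 in the neuronal class and -1.14 in the common class, beside 0.07 over all genes tested. The split did not follow the class in TUBA1A, which was lower with TSA in all 3 lines, nor in TUBB4B and TUBB6, which did not pass the test.

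TUBB4A, a β-tubulin best known from brain, where mutations cause leukodystrophy, had 43.9, 54.5 and 38.3 RPKM in TSA-treated MHCC97H, A549 and HCT116, against 1.09, 5.09 and 15.5 RPKM in the untreated lines. All treated values were above all untreated ones, as for 14.2% of all genes tested. The fitted change was 3.28 ± 0.66 on the log2 scale (SE, edgeR, adjusted p = 0.00721), or 9.73-fold. The untreated lines differed widely and the treated ones hardly did, so the change within a line was 4.75 in MHCC97H, 3.11 in A549 and 1.21 in HCT116 on the log2 scale of TMM-scaled CPM plus 1.

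TUBB2B, a β-tubulin of developing neurons, had 57.3 and 46.6 RPKM in TSA-treated MHCC97H and A549, against 1.79 and 3.89 RPKM in the untreated cells of these lines. In HCT116 it had 0.232 RPKM with TSA (7 counts) and 0.303 RPKM without (10 counts). The groups therefore overlap because of HCT116, in which the gene was barely read in any condition. The fitted change over the 3 lines was 3.43 ± 0.84 (SE, edgeR, adjusted p = 0.0150), and within lines it was 4.49 in MHCC97H, 3.22 in A549 and -0.15 in HCT116. Whether the lines differ in their response could not be tested with 1 library per line and condition.

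TUBB2A, the neighbour of TUBB2B, had 184, 184 and 104 RPKM in TSA-treated MHCC97H, A549 and HCT116, against 94.5, 80.0 and 64.2 RPKM in the untreated lines. The groups did not overlap, and the change was similar in the lines, at 0.75, 0.98 and 0.62 on the log2 scale. The fitted change was 0.81 ± 0.25 (SE, edgeR, adjusted p = 0.0350), or 1.75-fold. Counts of TUBB2B came to 38.8% of those of TUBB2A in TSA-treated MHCC97H and 31.5% in TSA-treated A549, against 2.36% and 6.05% in the untreated cells.

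TUBB3, the neuronal β-tubulin III, had 234, 212 and 79.1 RPKM in TSA-treated MHCC97H, A549 and HCT116, against 50.9, 119 and 58.3 RPKM in the untreated lines. It was higher with TSA in each line, but the groups overlapped, since treated HCT116 lay below untreated A549. The fitted change was 1.09 ± 0.37 (SE, edgeR, adjusted p = 0.0479), or 2.13-fold, and MHCC97H moved most, by 1.99 on the log2 scale against 0.61 in A549 and 0.36 in HCT116. In TSA-treated MHCC97H it was the highest of the 10 genes by RPKM.

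TUBA1A, the main α-tubulin of neurons, had 45.6, 225 and 165 RPKM in TSA-treated MHCC97H, A549 and HCT116, against 179, 285 and 194 RPKM in the untreated lines. The groups overlapped, but it was lower with TSA in every line, most in MHCC97H (-2.16 on the log2 scale) and less in A549 (-0.56) and HCT116 (-0.30). The fitted change of -0.91 ± 0.35 did not pass the test (SE, edgeR, adjusted p = 0.0685), and DESeq2 placed it just inside (-0.88, adjusted p = 0.0433).

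Among the common isotypes, TUBA1B, the most abundant α-tubulin of dividing cells, had 155, 234 and 274 RPKM in TSA-treated MHCC97H, A549 and HCT116, against 653, 991 and 825 RPKM in the untreated lines. All treated values were below all untreated ones, as for 7.75% of all genes tested. TUBA1A, TUBA1B, TUBA1C and TUBB were the 4 members lower with TSA in all 3 lines, beside 26.6% of all genes tested, and TUBB2A, TUBB3 and TUBB4A the 3 higher in all 3, beside 28.3%. The fitted change was -2.08 ± 0.27 on the log2 scale (SE, edgeR, adjusted p = 0.00191), which is 4.23-fold lower.

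TUBB, the main β-tubulin of dividing cells, had 141, 139 and 285 RPKM in TSA-treated MHCC97H, A549 and HCT116, against 515, 631 and 604 RPKM in the untreated lines. The groups did not overlap, and TSA-treated HCT116 kept about as much TUBB as the other 2 treated lines together. The fitted change was -1.87 ± 0.27 (SE, edgeR, adjusted p = 0.00238), or 3.66-fold lower.

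TUBA1C, also a widely expressed α-tubulin, had 131, 129 and 146 RPKM in TSA-treated MHCC97H, A549 and HCT116, against 329, 318 and 174 RPKM in the untreated lines. The groups did not overlap, and the treated lines lay closer together than the untreated ones. The fitted change was -1.14 ± 0.27 (SE, edgeR, adjusted p = 0.0133), made of -1.53 and -1.52 in MHCC97H and A549 and -0.32 in HCT116.

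TUBB4B, a β-tubulin of most tissues that is also abundant in cilia, had 176, 395 and 295 RPKM in TSA-treated MHCC97H, A549 and HCT116, against 198, 349 and 254 RPKM in the untreated lines. The groups overlapped and no direction was shared by the lines (fitted change -0.08 ± 0.37, SE). TUBB6, a minor β-tubulin, had 1.07, 24.7 and 77.7 RPKM with TSA, against 1.01, 70.3 and 52.1 RPKM without, in the same order of lines. It was lower with TSA in A549 (-1.71 on the log2 scale), higher in HCT116 (0.50) and low in MHCC97H (29 and 30 counts). Its fitted change was -0.46 ± 0.41 (SE, edgeR, adjusted p = 0.400).

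The calls under TSA depended on which lines were in the fit, and each fit without a line has fewer samples. Without A549 no member was called (12 genes over the whole table, 11 higher and 1 lower), at log2 changes of 3.40 for TUBB4A, 3.37 for TUBB2B, 1.37 for TUBB3, 0.73 for TUBB2A, -1.91 for TUBA1B, -1.56 for TUBB and -0.88 for TUBA1C. Without MHCC97H TUBB3 was at 0.52 (adjusted p = 0.298) and TUBB2B at 2.23 (adjusted p = 0.142). Only TUBA1B and TUBB were then called, among 604 higher and 548 lower genes. Without HCT116 all of the 7 but TUBB2A (adjusted p = 0.0577) were called, among 3316 higher and 3179 lower genes. In a fit on the 6 TSA-treated and untreated libraries no gene of the table was called. Without the cell line term only TUBA1B and TUBB were, among 114 higher and 146 lower genes. TUBB3 was also lost when low genes were kept in (adjusted p = 0.0563).

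**Figure D2:**
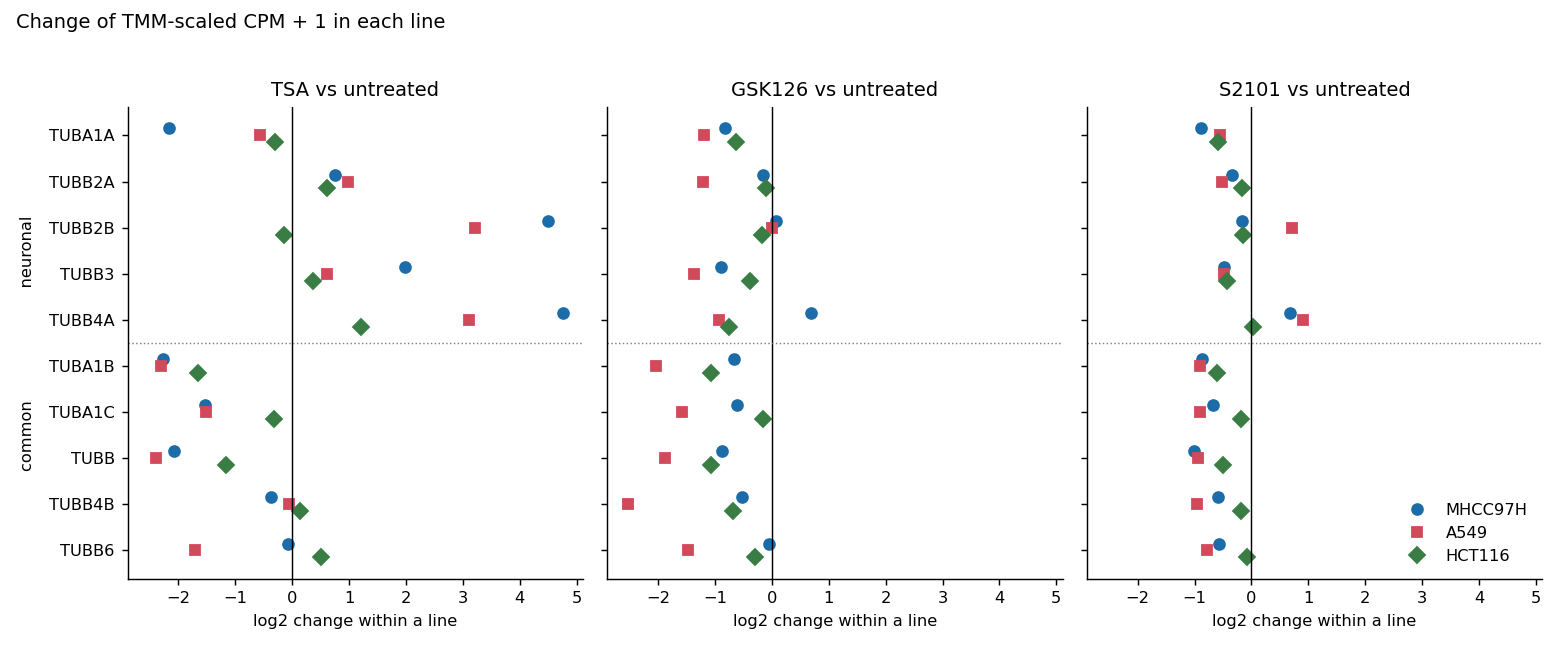
Change within each line under TSA, GSK126 and S2101, as log2 of the ratio of TMM-scaled CPM plus 1 to the untreated cells of that line; neuronal isotypes are above the dotted line and common ones below it. Under TSA TUBB4A lies at 1.21 to 4.75 and TUBA1B at -2.30 to -1.66, but the classes overlap. TUBA1A, of the neuronal class, lies at -2.16 to -0.30, and TUBB6, of the common class, at -1.71 to 0.50. Under GSK126 and S2101 most points lie left of 0.

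The shift between classes showed in the pool. With TSA the 10 genes summed to 1169, 1643 and 1465 RPKM in MHCC97H, A549 and HCT116, against 2024, 2853 and 2242 RPKM in the untreated lines, which is 57.8%, 57.6% and 65.3% of the untreated sum. The common class came to 35.6%, 39.0% and 56.4% of its untreated RPKM, while the neuronal class came to 173%, 147% and 117% of its own. Percentages of untreated RPKM, here and below, rest on library totals, while the log2 changes use TMM scaling (factors 0.89 to 1.11), so the scales differ. The neuronal share was 48.3%, 44% and 26.4% in the TSA-treated lines, against 16.2%, 17.3% and 14.8% in the untreated lines, a mean of 39.6% ± 11.6 against 16.1% ± 1.25 (SD, n = 3 each). All treated shares were above all untreated ones, with HCT116 the lowest in both groups.

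The α and β partners of the heterodimer were not affected alike. The 3 α-tubulin genes summed to 332, 588 and 586 RPKM in TSA-treated MHCC97H, A549 and HCT116, against 1161, 1594 and 1193 RPKM in the untreated lines. The 7 β-tubulin genes summed to 837, 1056 and 879 RPKM with TSA, against 863, 1259 and 1049 RPKM without. The ratio of α-tubulin to β-tubulin RPKM was thus 0.397, 0.557 and 0.666 with TSA and 1.35, 1.27 and 1.14 without, and these groups did not overlap. Within β-tubulin the neuronal genes made up 62.1%, 47.1% and 25.2% with TSA, against 17.2%, 16.5% and 13.2% without. Within α-tubulin the neuronal TUBA1A made up 13.7%, 38.3% and 28.2% with TSA, against 15.4%, 17.9% and 16.3% without, so it was lower in MHCC97H and higher in the other 2 lines.

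**Figure D3:**
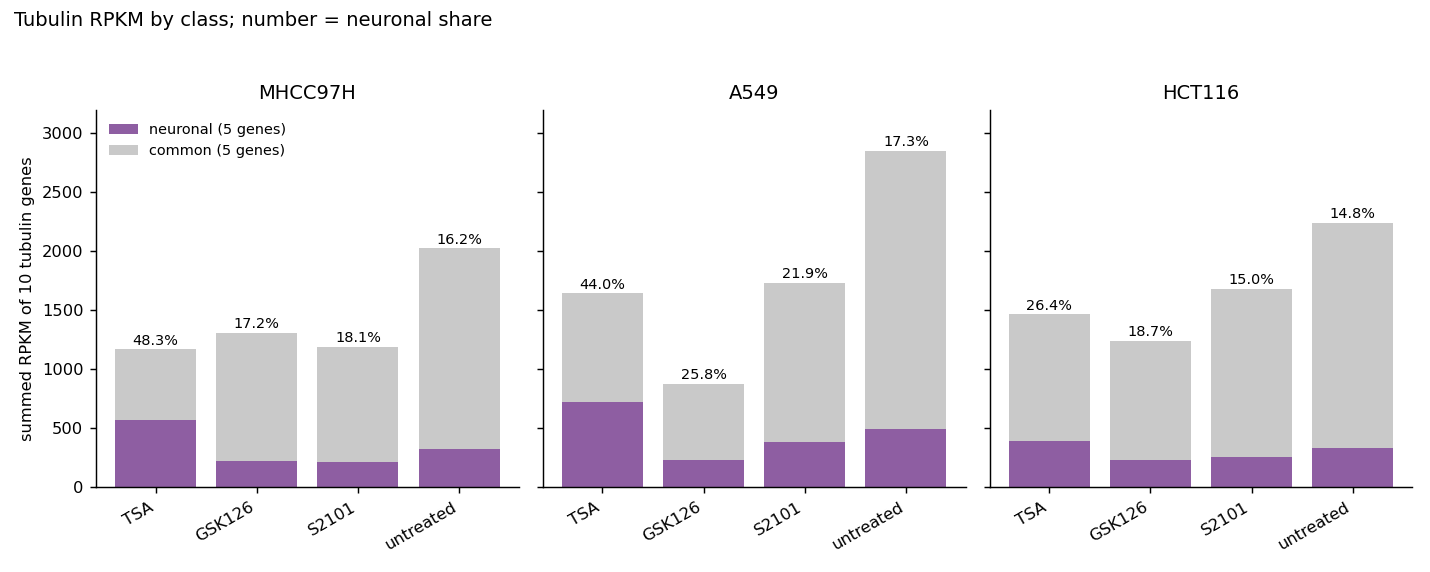
Summed RPKM of the 10 tubulin genes per library, stacked by class, with the neuronal share printed over each bar; panels are the 3 lines. The TSA bars are shorter than the untreated bars (1169 against 2024 RPKM in MHCC97H) while their neuronal part is larger, and the GSK126 and S2101 bars are shorter with shares of 15 to 25.8%.

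Some neuron markers other than tubulin were also higher with TSA. Of 9 such genes 7 were tested and 3 rose, beside 17.1% of all genes, and the summed level of the 9 was 27.8, 280 and 108 CPM in TSA-treated MHCC97H, A549 and HCT116, against 13.4, 35.3 and 92.4 CPM in the untreated lines. ELAVL4, a neuronal RNA-binding protein, had no reads in TSA-treated MHCC97H and HCT116 or in any untreated line. The sum was 12.5, 105 and 116 CPM with GSK126 and 14, 85.4 and 117 CPM with S2101, in the same order of lines, where the neuronal tubulin RPKM was below untreated. The part of these markers in the result was not tested. Of 9 blood and stroma markers 5 were tested and 2 rose, beside the same 17.1%. The 9 summed to 220, 130 and 89.9 CPM in TSA-treated MHCC97H, A549 and HCT116, against 149, 52.2 and 38.7 CPM in the untreated lines. Of the other lists 1 of 6 liver markers tested rose, and none of 5 gut and 4 lung markers tested changed, beside 17.1% of all genes in each direction. With so few genes these counts do not set the lists apart.

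Under GSK126 every member had a negative fitted change, but none was called, as in the whole table, where 0.0% of genes were called in either direction. By edgeR 6 of the 10 members and 2784 of 16394 genes had an unadjusted p under 0.05, and DESeq2 called 2 members (TUBA1B and TUBB) among 571 higher and 635 lower genes (4.92% of genes with an adjusted p for the lower ones). Members lower in all 3 lines numbered 8 of 10, beside 23.4% of all genes tested, and 5 of the 10 had treated values below all untreated ones, beside 4.64%. The median change was -0.45 in the neuronal class and -1.13 in the common class, beside 0.01 over all genes.

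Of the 10 members 5 (TUBA1B, TUBA1C, TUBB, TUBB4B and TUBB2A) had their lowest GSK126 level in A549. TUBA1B had 424, 261 and 383 RPKM in GSK126-treated MHCC97H, A549 and HCT116, against 653, 991 and 825 RPKM in the untreated lines (-1.21 ± 0.27 on the log2 scale, SE, edgeR, adjusted p = 0.0939). TUBB had 292, 185 and 279 RPKM with GSK126, against 515, 631 and 604 RPKM without (-1.26 ± 0.27, adjusted p = 0.0936). In both genes the groups did not overlap.

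TUBB4B had 143, 64.7 and 152 RPKM in GSK126-treated MHCC97H, A549 and HCT116, against 198, 349 and 254 RPKM in the untreated lines, a change of -2.53 in A549 and of -0.52 and -0.69 in MHCC97H and HCT116. TUBB3 had 28.3, 49.3 and 43.3 RPKM with GSK126, against 50.9, 119 and 58.3 RPKM without. All treated TUBB3 values lay below all untreated ones, and the fitted change was -0.85 ± 0.37 (SE, edgeR, adjusted p = 0.278). TUBA1A had 104, 133 and 121 RPKM with GSK126, against 179, 285 and 194 RPKM without, again with no overlap.

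The 2 genes that TSA raised most showed no shared direction under GSK126. TUBB2B had 1.97, 4.17 and 0.205 RPKM in GSK126-treated MHCC97H, A549 and HCT116, against 1.79, 3.89 and 0.303 RPKM in the untreated lines. TUBB4A had 2.03, 2.69 and 8.79 RPKM with GSK126, against 1.09, 5.09 and 15.5 RPKM without, higher in MHCC97H and lower in the other 2 lines. When the TSA libraries were left out of the model (9 libraries), TUBA1A, TUBA1B, TUBB and TUBB3 were called lower with GSK126 (adjusted p = 0.0189 to 0.0247, log2 changes -0.84 to -1.23), beside 6.85% of the genes tested, and a fit on the 6 libraries called TUBB (adjusted p = 0.0499), beside 0.482%.

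The pool under GSK126 was 1308, 877 and 1237 RPKM in MHCC97H, A549 and HCT116, which is 64.6%, 30.7% and 55.2% of the untreated sum. Its neuronal share of 17.2%, 25.8% and 18.7% was above the untreated 16.2%, 17.3% and 14.8% in each line, but the neuronal RPKM itself was 45.9 to 69.6% of untreated. The share averaged 20.6% ± 4.59 with GSK126 and 16.1% ± 1.25 in untreated cells (SD, n = 3 each).

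With S2101 no member was called, as in the whole table (0.0% of genes in either direction). By edgeR 3 members (TUBA1B, TUBA1C and TUBB) and 821 of all genes had an unadjusted p under 0.05, and DESeq2 called 19 higher and 4 lower genes and no member. The same 8 members as under GSK126 were lower in all 3 lines, beside 21.4% of all genes tested, and both comparisons share the untreated libraries. The median change was -0.35 in the neuronal class and -0.63 in the common class, beside 0.00 over all genes.

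TUBA1B had 365, 570 and 553 RPKM in S2101-treated MHCC97H, A549 and HCT116, against 653, 991 and 825 RPKM in the untreated lines (-0.81 ± 0.26, SE, edgeR, adjusted p = 0.936). TUBB had 261, 359 and 438 RPKM with S2101, against 515, 631 and 604 RPKM without (-0.83 ± 0.26, adjusted p = 0.936). In both genes the groups did not overlap, as for 1.53% of all genes tested in this direction. The pool was 58.7%, 60.7% and 75.0% of the untreated sum, and the neuronal share was 18.1%, 21.9% and 15%, a mean of 18.3% ± 3.46 against 16.1% ± 1.25 in untreated cells (SD, n = 3 each).

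TUBB4A was higher with S2101 in all 3 lines but was not called. It had 1.97, 10.6 and 16.2 RPKM in S2101-treated MHCC97H, A549 and HCT116, against 1.09, 5.09 and 15.5 RPKM in the untreated lines, with log2 changes of 0.67, 0.90 and 0.03 (fitted 0.52 ± 0.60, SE, edgeR, adjusted p = 0.999). TUBB2B was higher in A549, with 7.17 RPKM under S2101 against 3.89 RPKM in untreated cells, and at -0.16 and -0.14 on the log2 scale in MHCC97H and HCT116. The S2101 library of A549 is the one in which genes read under TSA had 7.89% of their TSA level, and its part in these values was not tested. Without it the fitted change of TUBB4A was 0.17 and that of TUBB2B was -0.29, against 0.52 and 0.22 with it.

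Set against the other compounds at the doses used, which differ, TSA gave higher levels of the same 4 neuronal genes. These comparisons share the TSA libraries with that against untreated cells, so they are not independent of it. TUBB2A, TUBB2B, TUBB3 and TUBB4A were called higher with TSA than with GSK126 (log2 differences 1.25 ± 0.25, 3.56 ± 0.83, 1.94 ± 0.38 and 3.73 ± 0.67, SE), beside 14.5% of all genes, and TUBA1B was called lower (-0.87 ± 0.27), beside 14.2%. They were also called higher with TSA than with S2101 (1.15 ± 0.25, 3.20 ± 0.82, 1.56 ± 0.37 and 2.76 ± 0.64), beside 13.2%, and TUBA1B (-1.27 ± 0.27) and TUBB (-1.05 ± 0.27) were called lower, beside 13%. TUBA1A did not differ beyond its error in either comparison (-0.04 ± 0.34 against GSK126 and -0.22 ± 0.34 against S2101). Without MHCC97H 1 member (TUBB4A) was called higher against GSK126, among 537 higher and 551 lower genes. No gene of the table was then called against S2101. Without A549 no member was called in either comparison. No gene was called against GSK126 in that fit, and 14 higher and 3 lower against S2101. Its log2 differences from GSK126 were 3.57 for TUBB4A, 3.60 for TUBB2B and 1.94 for TUBB3. The call of TUBA1B against GSK126 was lost without any 1 of the 3 lines (adjusted p = 0.0735 to 0.284). Between GSK126 and S2101 no member and 0.0% of genes were called by edgeR, with 0 members and 455 genes at an unadjusted p under 0.05, and DESeq2 called none.

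The lines differed most in TUBB6, of the common class, and TUBB2B, of the neuronal class. TUBB6 had 0.54 to 1.07 RPKM in the 4 libraries of MHCC97H, 24.7 to 70.3 RPKM in those of A549 and 41.1 to 77.7 RPKM in those of HCT116. A549 had 41.6-fold and HCT116 54.2-fold more than MHCC97H (edgeR, 4 libraries a line, log2 differences 5.38 ± 0.41 and 5.76 ± 0.42, SE, adjusted p = 2.85e-05 and 9.42e-06). The difference between A549 and HCT116 was not called (-0.38 ± 0.33, SE, edgeR, adjusted p = 0.381). TUBB2B was the reverse case, with 0.205 to 0.303 RPKM in HCT116, 3.89 to 46.6 RPKM in A549 and 1.58 to 57.3 RPKM in MHCC97H. It was 36.5-fold higher in A549 than in HCT116 and 21.9-fold lower in HCT116 than in MHCC97H (log2 differences 5.19 ± 0.81 and -4.45 ± 0.83, SE, edgeR, adjusted p = 0.000898 and 0.00163). Without the TSA libraries these differences were 4.41 and -3.03, both still called.

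Smaller differences were called for 4 neuronal genes and, as fitted here, for none of the other common genes. TUBA1C narrowly missed the threshold in HCT116 against MHCC97H (-0.61 ± 0.23 on the log2 scale, SE, edgeR, adjusted p = 0.0501) and was called with RLE size factors (adjusted p = 0.0490), by DESeq2 (adjusted p = 0.0304) and without the TSA libraries (-0.82, adjusted p = 0.00928). TUBB3 was higher in A549 than in HCT116 (0.97 ± 0.32 on the log2 scale, SE, edgeR, adjusted p = 0.0330), and TUBA1A was higher in A549 than in MHCC97H (0.94 ± 0.30, adjusted p = 0.0311), a call lost without HCT116 (0.98, adjusted p = 0.05). TUBB2A was lower in HCT116 than in MHCC97H (-0.78 ± 0.22, adjusted p = 0.0132), and TUBB4A was higher there (1.96 ± 0.56, adjusted p = 0.0152). In these 4 cases the libraries of the lines overlapped. Line differences were frequent over the table: 23.1% of genes were called higher and 21.1% lower in A549 than in HCT116, 22.8% and 20.7% in A549 than in MHCC97H, and 27.8% and 27.4% in HCT116 than in MHCC97H. The counts of members (2 higher and 0 lower, 2 and 0, 2 and 2) are near those shares.

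**Figure D4:**
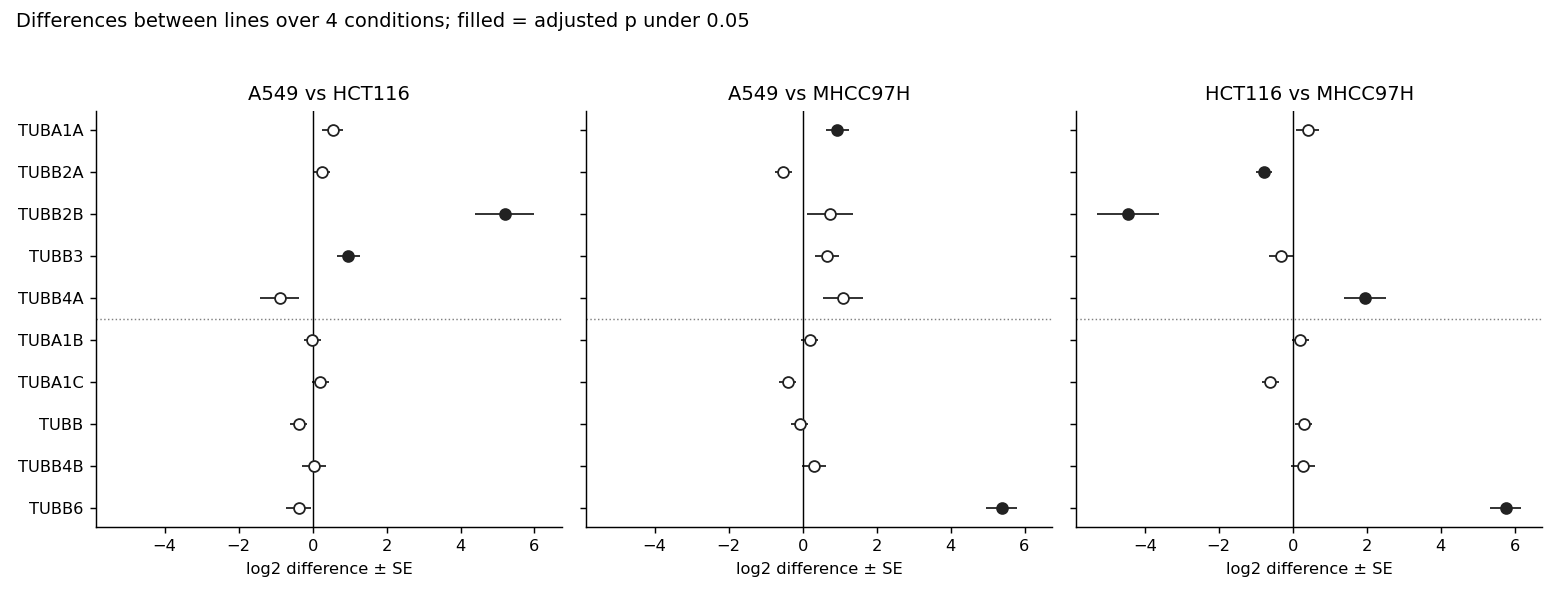
Fitted log2 difference between lines over the 4 conditions with its SE (4 libraries a line); filled points have an adjusted p under 0.05, and the dotted line parts neuronal (above) from common isotypes. TUBB6 stands at 5.38 and 5.76 against MHCC97H, TUBB2B at 5.19 in A549 against HCT116, and TUBA1C at -0.61 in HCT116 against MHCC97H, not called.

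Across the 12 libraries, after each line's mean was removed, the members fell into blocks by their log2 CPM. TUBA1B followed TUBB (Pearson r = 0.982) and TUBA1C (0.931), and TUBB2B followed TUBB4A (0.933), which followed TUBB3 (0.880) and TUBB2A (0.823). TUBB4B, a common isotype, followed TUBB2A (0.768) more than TUBB (0.300), and TUBA1A, a neuronal one, followed TUBA1C (0.861) and TUBA1B (0.792) and ran against TUBB2B (-0.598). These are descriptions over 12 libraries of which 3 are TSA-treated, so the points share the difference between TSA and the rest.

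By the same measure over the other genes tested, the 3 most like TUBB3 were TCTN3 (r = 0.975), ERI3 (0.971) and TMEM74 (0.970). For TUBA1A they were CDK12 (0.976), CENPE (0.952) and HMGN2 (0.951), and for TUBB NCL (0.996), PSMA4 (0.993) and MRTO4 (0.993). PXMP4, CHRNB2 and RRS1-AS1 (each 0.990) were nearest to TUBB2B, and RAB3A (0.990), AFMID (0.987) and HLA-DQB1 (0.980) to TUBB4A.

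The 250 bases before the transcription start are shown for the neighbours TUBB2A and TUBB2B, of which TUBB2A was read in all lines and TUBB2B hardly in HCT116, and for TUBA1B, the gene that TSA lowered most (RefSeq, GRCh38.p14, gene strand). Capitals mark the GC box GGGCGG, the CCAAT box CCAAT and the TATA box TATAAA on either strand.
TUBB2A: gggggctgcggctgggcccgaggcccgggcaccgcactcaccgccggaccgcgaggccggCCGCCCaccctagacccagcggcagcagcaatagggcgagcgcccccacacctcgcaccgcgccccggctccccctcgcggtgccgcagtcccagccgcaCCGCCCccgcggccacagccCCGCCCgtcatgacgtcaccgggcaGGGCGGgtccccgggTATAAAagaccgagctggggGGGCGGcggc
TUBB2B: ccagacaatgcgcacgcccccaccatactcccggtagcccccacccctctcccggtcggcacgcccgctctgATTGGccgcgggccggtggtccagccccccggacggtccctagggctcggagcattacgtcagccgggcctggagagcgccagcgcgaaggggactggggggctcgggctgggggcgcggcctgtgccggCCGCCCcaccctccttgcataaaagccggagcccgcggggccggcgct
TUBA1B: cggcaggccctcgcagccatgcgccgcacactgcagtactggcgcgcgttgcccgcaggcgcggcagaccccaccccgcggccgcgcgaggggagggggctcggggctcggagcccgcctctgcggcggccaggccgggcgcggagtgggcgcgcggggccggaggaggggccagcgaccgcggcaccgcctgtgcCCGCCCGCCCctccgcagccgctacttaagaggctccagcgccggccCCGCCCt
The windows are chr6:3157545-3157794, chr6:3227654-3227903 and chr12:49131396-49131645, all on the minus strand. TUBB2A had 5 GC boxes and a TATA box, TUBB2B 1 GC box and 1 CCAAT box, and TUBA1B 3 GC boxes, of which 2 overlap. Of 35116 windows of this length, 42.6% held a GC box, 32.0% a CCAAT box and 10.7% a TATA box. The 3 windows held 33, 28 and 38 CpG dinucleotides, against a median of 11 over all windows. Letters found in a window are a description and not evidence of binding.

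Of the other tubulin genes (α-, β-, γ-, δ- and ε-tubulins outside the 10), 9 of 12 were tested. With TSA 1 rose and 0 fell, counts not far from the 17.1% of all genes in each direction. The gene that rose was TUBG2, a γ-tubulin. It had 12.6, 18.5 and 12.3 RPKM in TSA-treated MHCC97H, A549 and HCT116, against 3.62, 5.75 and 6.52 RPKM in the untreated lines (1.31 ± 0.23 on the log2 scale, SE, edgeR, adjusted p = 0.00440). The genes that fold tubulin, the CCT chaperonin, prefoldin and the tubulin cofactors, had 7 of 20 lower with TSA and none higher, beside 17.1% of all genes in each direction, with a median of -0.37. The largest decreases were those of PFDN4 (-1.34 ± 0.16) and VBP1 (-1.07 ± 0.20), prefoldin subunits, and CCT5 (-1.19 ± 0.19) and CCT6A (-1.09 ± 0.12), chaperonin subunits (SE, adjusted p = 0.00143 to 0.00526).

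The genes of tubulin mRNA autoregulation had 3 of 11 lower with TSA and none higher, a count not far from the 17.1% of all genes lower, with a median of -0.36. The 3 were subunits of CCR4-NOT, CNOT6L (-0.81 ± 0.18), CNOT10 (-0.61 ± 0.14) and CNOT6 (-0.51 ± 0.14, SE, edgeR, adjusted p = 0.0112 to 0.0225). TTC5, which reads the nascent chain, had 7.80, 13.7 and 11.1 RPKM in TSA-treated MHCC97H, A549 and HCT116, against 6.72, 11.8 and 9.44 RPKM in the untreated lines, a fitted change of 0.05 ± 0.16 (adjusted p = 0.807). Its fitted change was -0.34 ± 0.16 with GSK126 and -0.08 ± 0.16 with S2101 (adjusted p = 0.311 and 1.0).

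Of the enzymes that modify tubulin 9 of 18 tested rose with TSA and none fell, beside 17.1% of all genes in each direction, with a median of 0.55. The glutamylases TTLL6 (2.80 ± 0.43), TTLL1 (2.37 ± 0.47) and TTLL7 (1.65 ± 0.33) and the deacetylase SIRT2 (1.92 ± 0.26) rose most (log2 ± SE, edgeR, adjusted p = 0.00201 to 0.00649). SIRT2 had 69.5, 82.3 and 11.1 RPKM with TSA, against 13.7, 12 and 5.05 RPKM without, in MHCC97H, A549 and HCT116, while TTLL6 stayed low at 1.98 to 7.28 RPKM against 0.198 to 0.813 RPKM. HDAC6, the main tubulin deacetylase and itself inhibited by TSA, had 13.8, 16.9 and 17.1 RPKM with TSA, against 7.60, 10.5 and 13.8 RPKM without (0.46 ± 0.15, adjusted p = 0.0417). Its fitted change was 0.54 ± 0.15 with GSK126 (adjusted p = 0.124) and 0.12 ± 0.15 with S2101 (adjusted p = 1.0).

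Of 15 neuronal microtubule-associated proteins and motors tested, 7 rose with TSA and none fell, beside 17.1% of all genes in each direction, with a median of 1.08. The other 8 did not pass, among them MAP1B, which binds axonal microtubules (-1.02 on the log2 scale), DCLK2 (-1.0) and CRMP1 (0.12), named after their values were seen. KIF1A, a motor of synaptic vesicle precursors, had 0.503, 17.5 and 0.0798 RPKM in TSA-treated MHCC97H, A549 and HCT116, against 0.0135, 0.311 and 0.00663 RPKM in the untreated lines (adjusted p = 0.00374). KIF5A, a neuronal kinesin, had 1.42, 2.40 and 4.08 RPKM with TSA, against 0, 0.0818 and 3.21 RPKM without (adjusted p = 0.0433), and DCLK1, a doublecortin-like kinase, had 0.0161, 0.526 and 1.51 RPKM against 0, 0.136 and 0.0217 RPKM (adjusted p = 0.0134). STMN4, a neuronal stathmin, had 22, 17 and 17 counts with TSA and none in any untreated library, which is at least 20.2-fold higher over a floor of 3 counts for the untreated group. It had 0 counts with GSK126 and 1 with S2101, so it passed the filter on low counts only through the TSA libraries, and its place among the 7 follows from that. All 4 stayed at no more than 17.5 RPKM with TSA. That was low beside most of the tubulins, but not beside TUBB2B in HCT116 (0.232 RPKM) or TUBB6 in MHCC97H (1.07 RPKM).

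The general microtubule-associated proteins and motors were mixed, with 3 of 17 higher and 7 lower, beside 17.1% of all genes in each direction (median -0.47). The share higher was near that of all genes. MAPRE3 (1.92 ± 0.26) and MAPRE2 (1.42 ± 0.13), end-binding proteins, rose, while CLIP1 (-1.66 ± 0.34), a plus-end protein, and PRC1 (-1.42 ± 0.33), which bundles spindle microtubules, fell (log2 ± SE, edgeR, adjusted p = 0.00113 to 0.0119). Nucleation genes had 1 of 12 higher and 7 lower, beside the same 17.1% (median -0.72): TUBGCP6 of the γ-tubulin ring complex rose (1.34 ± 0.31), and MZT1 (-1.47 ± 0.16), CDK5RAP2 (-1.30 ± 0.23) and TUBGCP3 (-1.0 ± 0.16) fell. A list of REST, which silences neuronal genes outside neurons, and of corepressors and histone deacetylases held 9 genes. Of these HDAC3 rose (1.13 ± 0.28) and REST (-0.65 ± 0.17) and HDAC2 (-0.61 ± 0.14) fell, with a median of 0.01. These counts of 1 higher and 2 lower are not far from the same 17.1%.

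**Figure D5:**
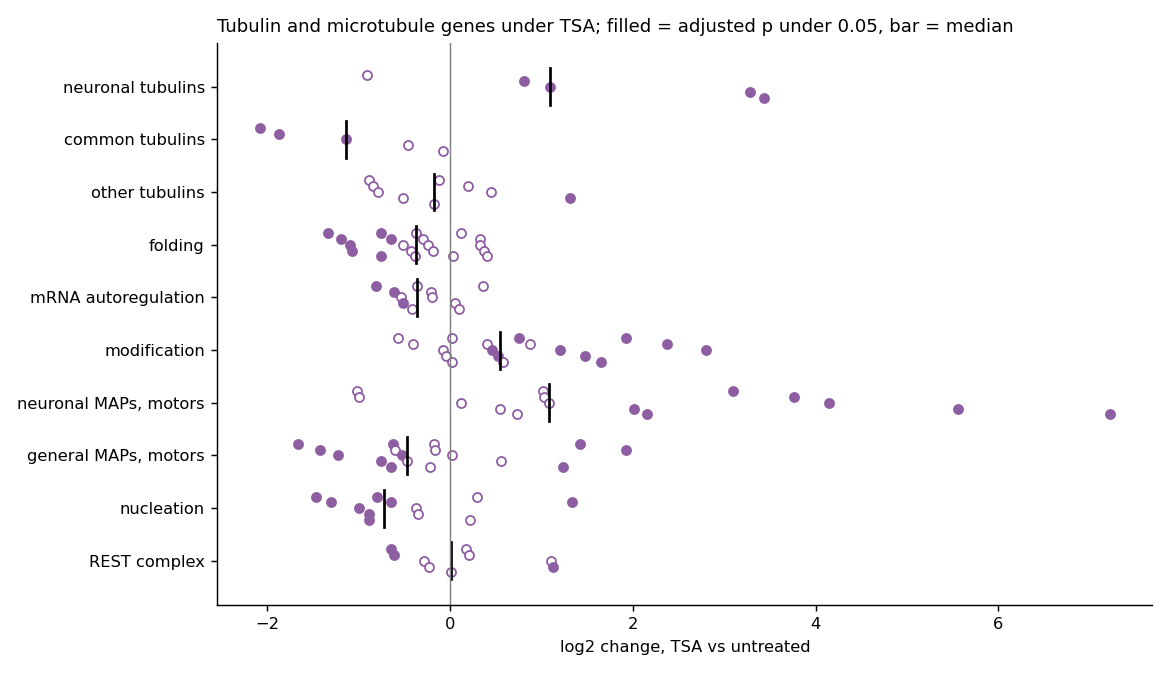
Fitted log2 change under TSA of every tested gene of the tubulin classes and of 8 lists of related genes; filled points have an adjusted p under 0.05 and the vertical bar is the list's median. The medians of the neuronal tubulins (1.09) and neuronal microtubule-associated proteins (1.08) lie to the right and those of the common tubulins (-1.14) and nucleation genes (-0.72) to the left; the point of STMN4, unread in untreated cells, depends on the small count added by the fit.

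No gene of these 8 lists was called under GSK126 or S2101, as in the whole table (0.0% of genes in either direction). The largest fitted changes under GSK126 were those of KIF1A (1.85 ± 0.95), DCLK1 (1.84 ± 0.92), TUBA4A (-1.38 ± 0.30), an α-tubulin of many tissues, and TPX2 (-1.12 ± 0.39), a spindle assembly factor. Under S2101 KIF1A (1.89 ± 0.95) and DCLK1 (1.87 ± 0.93) were again the furthest from 0, and TUBA4A was at -0.77 ± 0.30 (log2 ± SE, edgeR, adjusted p = 0.936). KIF1A was higher in A549 with both compounds, at 1.79 RPKM with GSK126 and 1.96 RPKM with S2101, beside 17.5 RPKM with TSA and against 0.311 RPKM in untreated A549. The S2101 value comes from the A549 library in which genes read under TSA had 7.89% of their TSA level, and the GSK126 value from the one in which they had 1.92%; the part of either in these values was not tested. The folding list had medians of -0.49 with GSK126 and -0.29 with S2101, beside 0.01 and 0.00 over all genes tested, with CCT2 at -0.78 ± 0.17 (adjusted p = 0.0936) and -0.46 ± 0.17 (adjusted p = 0.936).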

How the data were processed

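RNA-seq of 12 libraries was analysed. The authors deposited a raw read count per gene symbol and an RPKM value, scaled to the longest transcript's length, per the file headers. The submitters' processing notes name the builds GRCh38 and hg38. Aligner, counter and strand setting are not given. Of 25648 genes 25647 occur in all tables and were used, and an entry naming no gene (in 11 files) was dropped.

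Counts were tested with edgeR 4.0.16 (R 4.3.3): TMM scaling (factors 0.89 to 1.11), filterByExpr by condition (16394 genes kept), condition and cell line as terms, quasi-likelihood F test, 6 residual degrees of freedom. A gene was called at an adjusted p (Benjamini-Hochberg, over all genes tested) under 0.05, and an SE is the log2 change divided by the root of F. The cell line pairs the libraries: deviations of same-line libraries from their condition means correlated at 0.705 to 0.952. P-values measure the spread between these libraries, not between repeat cultures. The floor of 3 counts covers counting error only. No 2 libraries of a line agreed within sampling noise. DESeq2 1.42.0 was an alternative, with the others given in the closing section.

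The members and lists were chosen with earlier results of these data known. All members are named. Of each other list and compound, up to 4 called genes with the largest change are named, or up to 2 where none was called, plus TTC5 and HDAC6; likeness took the 3 genes of highest Pearson r for 5 members. Gene coordinates and upstream windows are RefSeq's. A 50-base stretch counted as shared when it occurs exactly in another gene's transcript. Coding ends of the α-tubulin genes are not reported here.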

Additional observations from a re-analysis of the deposited data

Results flagged for a closer look

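In 3 cases lines moved in opposite directions under the same compound by at least 1 on the log2 scale of TMM-scaled CPM plus 1, with 1 library per line and condition, so the difference was not tested. TUBB2B under TSA changed by 4.49 in MHCC97H and -0.15 in HCT116, where it had 7 counts with TSA and 10 without. TUBB6 under TSA changed by 0.50 in HCT116 and -1.71 in A549. TUBB4A under GSK126 changed by 0.69 in MHCC97H, where it had 86 counts with GSK126 and 45 without, and by -0.93 in A549. Conditions of 3 libraries are too small for a test of outlying samples.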

How the results depend on the processing

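Size factors by RLE, no filter on low counts and DESeq2 kept the counts of members called under TSA within 1.5 times. Without the cell line term (no replicate block), 0 members were called higher and 2 lower, among 114 higher and 146 lower genes, and 0 in either direction against GSK126 or S2101. In fits on the 6 libraries compared, 0 members and 0 genes were called under TSA, 1 member lower among 205 higher and 70 lower genes under GSK126, and 0 members among 18 and 2 under S2101. Leaving out a line gave 11 to 3316 higher and 1 to 3179 lower genes under TSA, with 0 to 3 members higher and 0 to 3 lower. Against GSK126 it gave 0 to 4 members higher and 0 to 1 lower, among 0 to 2657 higher and 0 to 2839 lower genes. Against S2101 it gave 0 to 4 and 0 to 2 members, among 0 to 2507 and 0 to 2637 genes. Between A549 and MHCC97H, leaving out HCT116 gave 1 member higher, among 3952 higher genes. Each such fit has fewer samples.

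Under GSK126, DESeq2 called 2 members lower among 571 higher and 635 lower genes, the 9 libraries without TSA 4 members among 1044 and 1080, and the filter of at least 10 CPM 7 genes higher. That filter also left 0 members lower with TSA than with GSK126. Under S2101, DESeq2 called 19 and 4 genes. Without TSA, 1 member was called lower in A549 than HCT116, among 4327 lower genes. In A549 against MHCC97H 5 members were then called higher and 1 lower, among 4696 higher and 4205 lower genes. The cause of these shifts was not tested.

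With TUBB2A among the common isotypes the neuronal share was 28.2% with TSA, 15.4% with GSK126, 13.9% with S2101 and 12.7% untreated. By counts in place of RPKM the share was 41.8% with TSA, 22.4% with GSK126, 20.1% with S2101 and 17.7% untreated. Signs turned only for members not called: under TSA TUBB4B (0.08 with the 10 CPM filter, -0.13 to 0.04 without a line) and TUBB6 (-1.07 to 0.29 without a line); TUBB2B under GSK126 (0.01 without the block, -0.26 to 0.07) and S2101 (-0.33 to 0.41; -0.29 without its A549 library). The same held for TUBA1A against GSK126 (0.09 with the filter, 0.13 without the block, -0.36 to 0.46) and S2101 (-0.49 to 0.13), TUBB6 against GSK126 (-0.15 to 0.47) and S2101 (-0.28 to 0.67), and, between lines, TUBA1B (0.06) and TUBB4B (-0.15 without TSA, -0.05 without MHCC97H, 0.00 with the filter) in A549 against HCT116 and TUBB3 (0.17) in HCT116 against MHCC97H. Without the block the TSA calls of TUBB2A, TUBB2B, TUBB3, TUBB4A and TUBA1C were lost (edgeR, adjusted p = 0.112 to 0.313). So were all member calls of TSA against GSK126 and S2101. Levels under about 10 counts, as of TUBB2B in HCT116, are limited by depth.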
